A study of Mus musculus with 15 samples.

Results

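The BCL-2 family and IAP (inhibitor of apoptosis) genes set whether a cell survives a death signal, and 10 of them were followed here across the crosslink sites of the RNA-binding protein tristetraprolin (TTP). The genes were Mcl1, Bcl2l1, Bcl2a1b and Bcl2a1d (anti-apoptotic), Bcl2l11, Pmaip1 and Bbc3 (BH3-only), and Birc2, Birc3 and Xiap (IAP), taken by name from 21028 coding genes with an annotated 3′UTR. All sites on the gene's own strand were used, by region, position, protein and time of LPS stimulation. Of 123142 sites found in any list, 352 lay in these genes, and 7 of the 10 genes held sites in the 3′UTR.

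TTP binds AU-rich elements, typically runs around the pentamer AUUUA in 3′UTRs, and recruits the machinery that removes the poly(A) tail, so that bound mRNAs are degraded. The kinase MK2, activated by LPS, phosphorylates TTP and weakens this activity. In macrophages, survival after LPS depends on anti-apoptotic BCL-2 proteins and IAPs, which oppose the mitochondrial and caspase pathways, whereas BH3-only proteins bind and neutralise the anti-apoptotic members.

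iCLIP, a UV crosslinking method that reads the protein-bound nucleotide as the base before each cDNA's start, was applied to immortalised macrophages derived from the bone marrow of TTP-deficient C57BL/6 mice. The cells carried doxycycline-inducible GFP-TTP or GFP-TTP-AA, in which serines phosphorylated by MK2 are replaced by alanine, as a retroviral transgene. All groups received doxycycline at 1 µg/ml for 6 h, and LPS at 1 µg/ml for 0, 1 or 4 h. For each protein and time the data held 1 list summed over libraries, from 2 libraries each at 0 and 4 h, 4 libraries of GFP-TTP at 1 h and 3 of GFP-TTP-AA at 1 h, so no value has an error between replicates and every test compares lists, not conditions. The cells had been immortalised with c-Myc and a mutant Ras, and in all groups the transgene was the only source of TTP.

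The 6 lists differed widely in size, from 8052 to 86497 sites and from 19167 to 174397 cDNAs (collapsed by random barcode). The part of the cDNAs in 3′UTRs ranged from 3.12% in the GFP-TTP 4 h list to 53.6% in the GFP-TTP-AA 1 h list, which gave 93510 3′UTR cDNAs against 9558 in the GFP-TTP 1 h list, a ratio of 9.78. Only sites that passed a false discovery rate in their own list are listed, so a 0 means that no listed site was there and gives no limit or fold. Exonic cDNAs were found for 9 of 10 macrophage markers in at least 1 list, with summed levels from 0 to 392 per list. With GFP-TTP the sums at 0, 1 and 4 h were 8, 114 and 7, of which Lyz2 alone gave 8, 108 and 7. All T cell, B cell, fibroblast and neutrophil markers were at 0 in every list. The deleted gene, Zfp36, had 9, 28 and 0 exonic cDNAs with GFP-TTP at 0, 1 and 4 h and 0, 162 and 0 with GFP-TTP-AA, and since the transgene carries its coding sequence these values do not test the deletion.

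At 1 h of LPS, the GFP-TTP-AA list held 373 3′UTR cDNAs in 7 of the 10 genes, and the GFP-TTP list held 30 in 4 of them. GFP-TTP-AA sites covered Mcl1, Bcl2l1, Bcl2l11, Pmaip1, Bbc3, Birc3 and Xiap, and GFP-TTP sites covered Bcl2l1, Bcl2l11, Pmaip1 and Birc3. Over all 21028 coding genes with an annotated 3′UTR, these lists held 3′UTR cDNAs in 4468 and 1295 genes. The larger number of genes with GFP-TTP-AA was thus not particular to this group. Before LPS the 10 genes held 10 3′UTR cDNAs with GFP-TTP-AA and 1 with GFP-TTP, and at 4 h they held 3 with each protein. The 3′UTR took 94.9% of the genes' 393 sense cDNAs with GFP-TTP-AA at 1 h (Wilson 95% interval 92.3 to 96.7) and 65.2% of 46 with GFP-TTP (50.8 to 77.3), where all coding genes had 85.6% and 37.4%. Intervals cover counting error only.

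**Figure D1:**
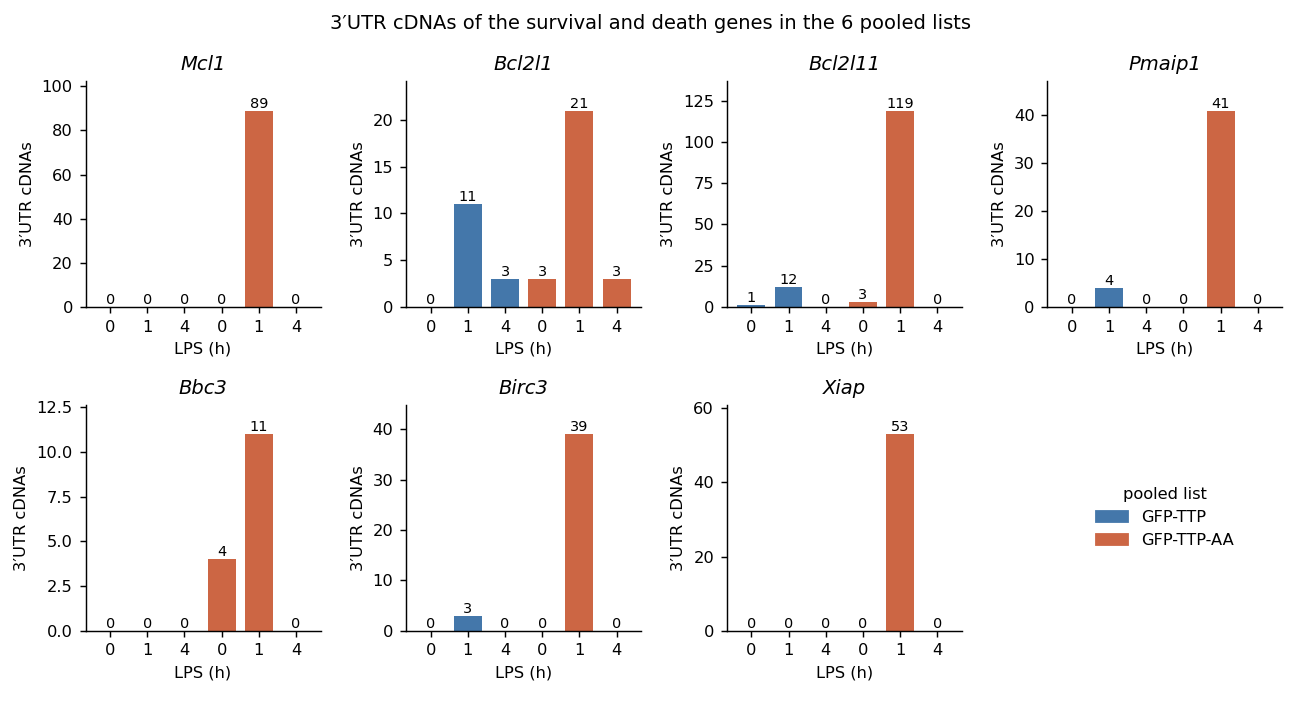
Bars give the number of 3′UTR cDNAs (y axis, linear from 0, a separate scale for each gene) of each gene with any, in the GFP-TTP (blue) and GFP-TTP-AA (orange) lists at 0, 1 and 4 h of LPS (x axis). The GFP-TTP-AA 1 h bar is the highest in each of the 7 genes, from 11 in Bbc3 to 119 in Bcl2l11, and Bcl2l1 is the gene with cDNAs of both proteins at 1 and 4 h.

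Sequences from the main clusters of 6 genes at 1 h are printed to show what the crosslinked stretches described below look like. Each is the 30-nt window with most 1 h cDNAs in its cluster, where a cluster is a run of sites at most 15 nt apart. All are GENCODE transcript sequence on build GRCm38, written 5′ to 3′ with T for U, and capitals mark AUUUA.
Mcl1, chr3:95661743-95661772, plus strand: aattatccaatcttttttttttgtATTTAa
Mcl1, chr3:95662595-95662624, plus strand: tccttgatcatagtttgcttATTTAtgttt
Bcl2l1, chr2:152780900-152780929, minus strand: atttttgttaagcgtgtctgtATTTAtgtg
Bcl2l11, chr2:128161352-128161381, plus strand: tatATTTAttttccgcttATTTAaatgtct
Bcl2l11, chr2:128161099-128161128, plus strand: cagtgttgtatatattttgactATTTAtta
Bbc3, chr7:16318137-16318166, plus strand: tttggttaattttttttgtacatgattttt
Birc3, chr9:7848791-7848820, minus strand: ttttatgtatagaaattcctgttATTTAtt
Xiap, chrX:42107513-42107542, plus strand: tttgtaatagttactttcatttgttATTTA
All lie in a 3′UTR. AUUUA stands in 7 of these 8 windows and is missing from that of Bbc3, which like the first of Mcl1 holds an uninterrupted run of U. The printed windows do not stand for all clusters. Of the 45 3′UTR clusters of the genes over all lists, 12 held a site within 20 nt of AUUUA. The windows of a further cluster each in Bcl2l1, Birc3 and Xiap are not printed and hold 0 AUUUA. They had 3, 1 and 6 GFP-TTP-AA cDNAs at 1 h, and the printed Xiap window also had 6.

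Mcl1 encodes a short-lived anti-apoptotic BCL-2 protein. Its 3′UTR (Mcl1-201, chromosome 3, 95660824 to 95663176, plus strand, 2353 nt) held 0, 0 and 0 cDNAs with GFP-TTP at 0, 1 and 4 h, and 0, 89 and 0 with GFP-TTP-AA. The cDNAs were thus in 1 of the 6 lists. At 1 h, the share of 3′UTR cDNAs was 0.0952% with GFP-TTP-AA, which in the GFP-TTP list would have been 9.10 cDNAs. The gene was called higher with GFP-TTP-AA (two-sided Fisher exact test, adjusted p 0.00872). Mcl1 reached the 10 cDNAs needed for the test through the GFP-TTP-AA list alone. Its 0 with GFP-TTP means that no site was listed, so the call gives no size of difference. With each site counted once, at 54 sites, the adjusted p was 0.0811, and with only sites of at least 2 cDNAs it was 0.119.

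The Mcl1 cDNAs fell into 5 clusters. The largest spanned nt 920 to 958 after the stop codon and held 47 of the 89 cDNAs (52.8%), 45 of them inside the first Mcl1 window above. Its strongest site, the A at position 95661767, carried 10 cDNAs and was the only site of any of the genes with 5 or more. A further cluster at nt 1765 to 1801 held 22 cDNAs, and all 17 of its sites lay within 20 nt of AUUUA. Clusters at nt 589 to 601 and nt 975 to 999 held 9 cDNAs each with no AUUUA within that distance. Another 2 cDNAs lay in the coding sequence.

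Bcl2l1 encodes BCL-XL, a longer-lived anti-apoptotic protein of the mitochondrial membrane. Its 3′UTR (Bcl2l1-201, chromosome 2, 152780668 to 152782144, minus strand, 1477 nt) held 0, 11 and 3 cDNAs with GFP-TTP at 0, 1 and 4 h, and 3, 21 and 3 with GFP-TTP-AA. It was the only gene of the 10 with 3′UTR cDNAs of both proteins after 4 h, and the GFP-TTP-AA count at 1 h was 1.91 times that of GFP-TTP (95% interval 0.880 to 4.38). As a share of 3′UTR cDNAs it was 0.115% with GFP-TTP and 0.0225% with GFP-TTP-AA, and the gene was called higher with GFP-TTP (odds ratio 0.195, adjusted p 0.00336, Fisher exact test). Per 100000 cDNAs of any region the counts were 11.1 and 12.0, an odds ratio of 1.09 (adjusted p 1.00, Fisher exact test against all cDNAs), and with only sites of at least 2 cDNAs the call was lost as well (adjusted p 0.267).

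All 11 GFP-TTP cDNAs of Bcl2l1 at 1 h lay in 1 cluster at nt 1216 to 1259, together with 16 of the 21 GFP-TTP-AA cDNAs (76.2%), the 3 of GFP-TTP-AA at 0 h and the 3 of GFP-TTP at 4 h. This cluster contains the only AUUUA of that 3′UTR, and 15 of its 18 sites lay within 20 nt of it. The 3 GFP-TTP-AA cDNAs at 4 h lay elsewhere, at nt 1442 to 1453, close to the annotated 3′ end. Each of the 9 GFP-TTP sites at 1 h had a GFP-TTP-AA site within 15 nt. A second group of sites spanned 14 nt of the 5′UTR of transcript Bcl2l1-202, with 8 cDNAs of GFP-TTP-AA and 2 of GFP-TTP at 1 h.

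Bcl2a1b and Bcl2a1d encode copies of the NF-κB-induced anti-apoptotic protein A1. No list held a cDNA in any part of either gene, and the copy Bcl2a1a was at 0 as well. The 3′UTRs of Bcl2a1b (chromosome 9, 89207681 to 89207827, plus strand, 147 nt) and Bcl2a1d (chromosome 9, 88723285 to 88723433, minus strand, 149 nt) are 98.7% identical. Every 43-nt stretch of these 3′UTRs, the read length left after removal of the barcode, also occurs in a transcript of another gene of the family or in Gm29094, as do 82.2% and 83.1% of the stretches of the whole transcripts. The study's methods speak of mapping unique reads, which may mean reads left after removal of duplicates or reads with 1 match, so the absence of binding and of placed reads cannot be told apart for these genes.

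Bcl2l11 encodes BIM, a BH3-only protein that starts mitochondrial apoptosis. Its 3′UTRs held 1, 12 and 0 cDNAs with GFP-TTP at 0, 1 and 4 h, and 3, 119 and 0 with GFP-TTP-AA, the highest counts among the 10 genes for both proteins at 1 h. The ratio of 9.92 (95% interval 5.47 to 19.7) stood next to the 9.78 of all 3′UTR cDNAs, and the test made no call (odds ratio 1.01, adjusted p 1.00). Counts were spread over 17 clusters of the 4218-nt 3′UTR of Bcl2l11-205 (chromosome 2, 128158330 to 128162547, plus strand). The cluster at nt 3005 to 3061 held 35 GFP-TTP-AA cDNAs, 5 GFP-TTP cDNAs and the single cDNA of GFP-TTP at 0 h, and 27 of its 28 sites lay within 20 nt of AUUUA. The next, at nt 2770 to 2803, held 16 cDNAs of GFP-TTP-AA, and a cluster without AUUUA at nt 2499 to 2552 held 7 of GFP-TTP-AA and 4 of GFP-TTP.

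The other last exon of Bcl2l11, that of transcript Bcl2l11-202, held 3 cDNAs of GFP-TTP-AA at nt 1309 to 1323 and 3 of GFP-TTP at nt 1680 to 1695 at 1 h. These 2 clusters do not overlap, and the second was the only 3′UTR cluster of the genes with GFP-TTP and without GFP-TTP-AA cDNAs at 1 h. Introns of Bcl2l11 held 2 cDNAs of GFP-TTP and 8 of GFP-TTP-AA at 1 h, and 3 and 2 at 4 h.

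Pmaip1 encodes NOXA, a BH3-only protein that binds MCL1. Its 3′UTR (Pmaip1-203, chromosome 18, 66463374 to 66465565, plus strand, 2192 nt) held 4 cDNAs with GFP-TTP and 41 with GFP-TTP-AA at 1 h and 0 in the 4 other lists. The ratio was 10.2 (95% interval 3.71 to 39.4, odds ratio 1.05, adjusted p 1.00, Fisher exact test). The positions differed more than the counts. All 4 GFP-TTP cDNAs lay at nt 222 to 234, in a cluster that runs to nt 242. This cluster also held 4 of the 41 GFP-TTP-AA cDNAs, and none of its sites has AUUUA within 20 nt. The other GFP-TTP-AA cDNAs lay towards the 3′ end, 9 at nt 1846 to 1869, 5 at nt 1903 to 1908 and 23 at nt 2066 to 2116, where 17 of 18 sites were beside AUUUA. The difference in position rests on 4 GFP-TTP cDNAs and was not tested.

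Bbc3 encodes PUMA, the BH3-only protein best known as a p53 target. Its 3′UTR (Bbc3-201, chromosome 7, 16317235 to 16318205, plus strand, 971 nt) held 0 cDNAs with GFP-TTP at any time, and 4, 11 and 0 with GFP-TTP-AA at 0, 1 and 4 h. All 15 lay in 1 cluster at nt 904 to 940, the last of them 32 nt from the 3′ end. The 3′UTR holds no AUUUA, and 6 of the 8 sites at 1 h were on a U. At 1 h the protein comparison made no call (adjusted p 0.731, Fisher exact test).

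Birc3 encodes cIAP2, a ubiquitin ligase of TNF receptor signalling induced by NF-κB. Its sites lay on the 564-nt 3′UTR of Birc3-201 (chromosome 9, 7848699 to 7849262, minus strand), which held 3 cDNAs with GFP-TTP and 39 with GFP-TTP-AA at 1 h and 0 in the 4 other lists (ratio 13.0, 95% interval 4.13 to 65.8, odds ratio 1.33, adjusted p 1.00, Fisher exact test). All 3 GFP-TTP cDNAs and 38 of the 39 of GFP-TTP-AA were in 1 cluster at nt 439 to 515. Of the 28 GFP-TTP-AA sites of the whole 3′UTR, 13 lay within 20 nt of AUUUA, whereas the 3 GFP-TTP sites, at nt 499, 501 and 511, were not. In the introns of Birc3, GFP-TTP had 10 cDNAs at 10 sites in 2 clusters and GFP-TTP-AA had 2 at 2 sites in another at 1 h. Over all coding genes, 3′UTRs held 37.4% of 25574 GFP-TTP cDNAs and 85.6% of 109262 GFP-TTP-AA cDNAs. A smaller excess of GFP-TTP-AA outside 3′UTRs was thus not particular to Birc3, and the intron counts were not tested.

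Xiap encodes the IAP that inhibits caspases directly. Its 3′UTR (Xiap-201, chromosome X, 42104985 to 42109656, plus strand, 4672 nt) held 53 cDNAs of GFP-TTP-AA at 1 h and 0 in the 5 other lists. An equal share would have been 5.42 cDNAs in the GFP-TTP list, and the test made no call (adjusted p 0.133, Fisher exact test). In contrast to Mcl1, the counts were spread over 10 clusters of 3 to 10 cDNAs each. The 3′UTR holds 16 copies of AUUUA, and 14 of 47 sites (29.8%) lay within 20 nt of it, against 12.0% of positions. Birc2, which encodes cIAP1, had 0 cDNAs in its 523-nt 3′UTR in every list and 2 GFP-TTP cDNAs in an intron at 1 h.

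**Figure D2:**
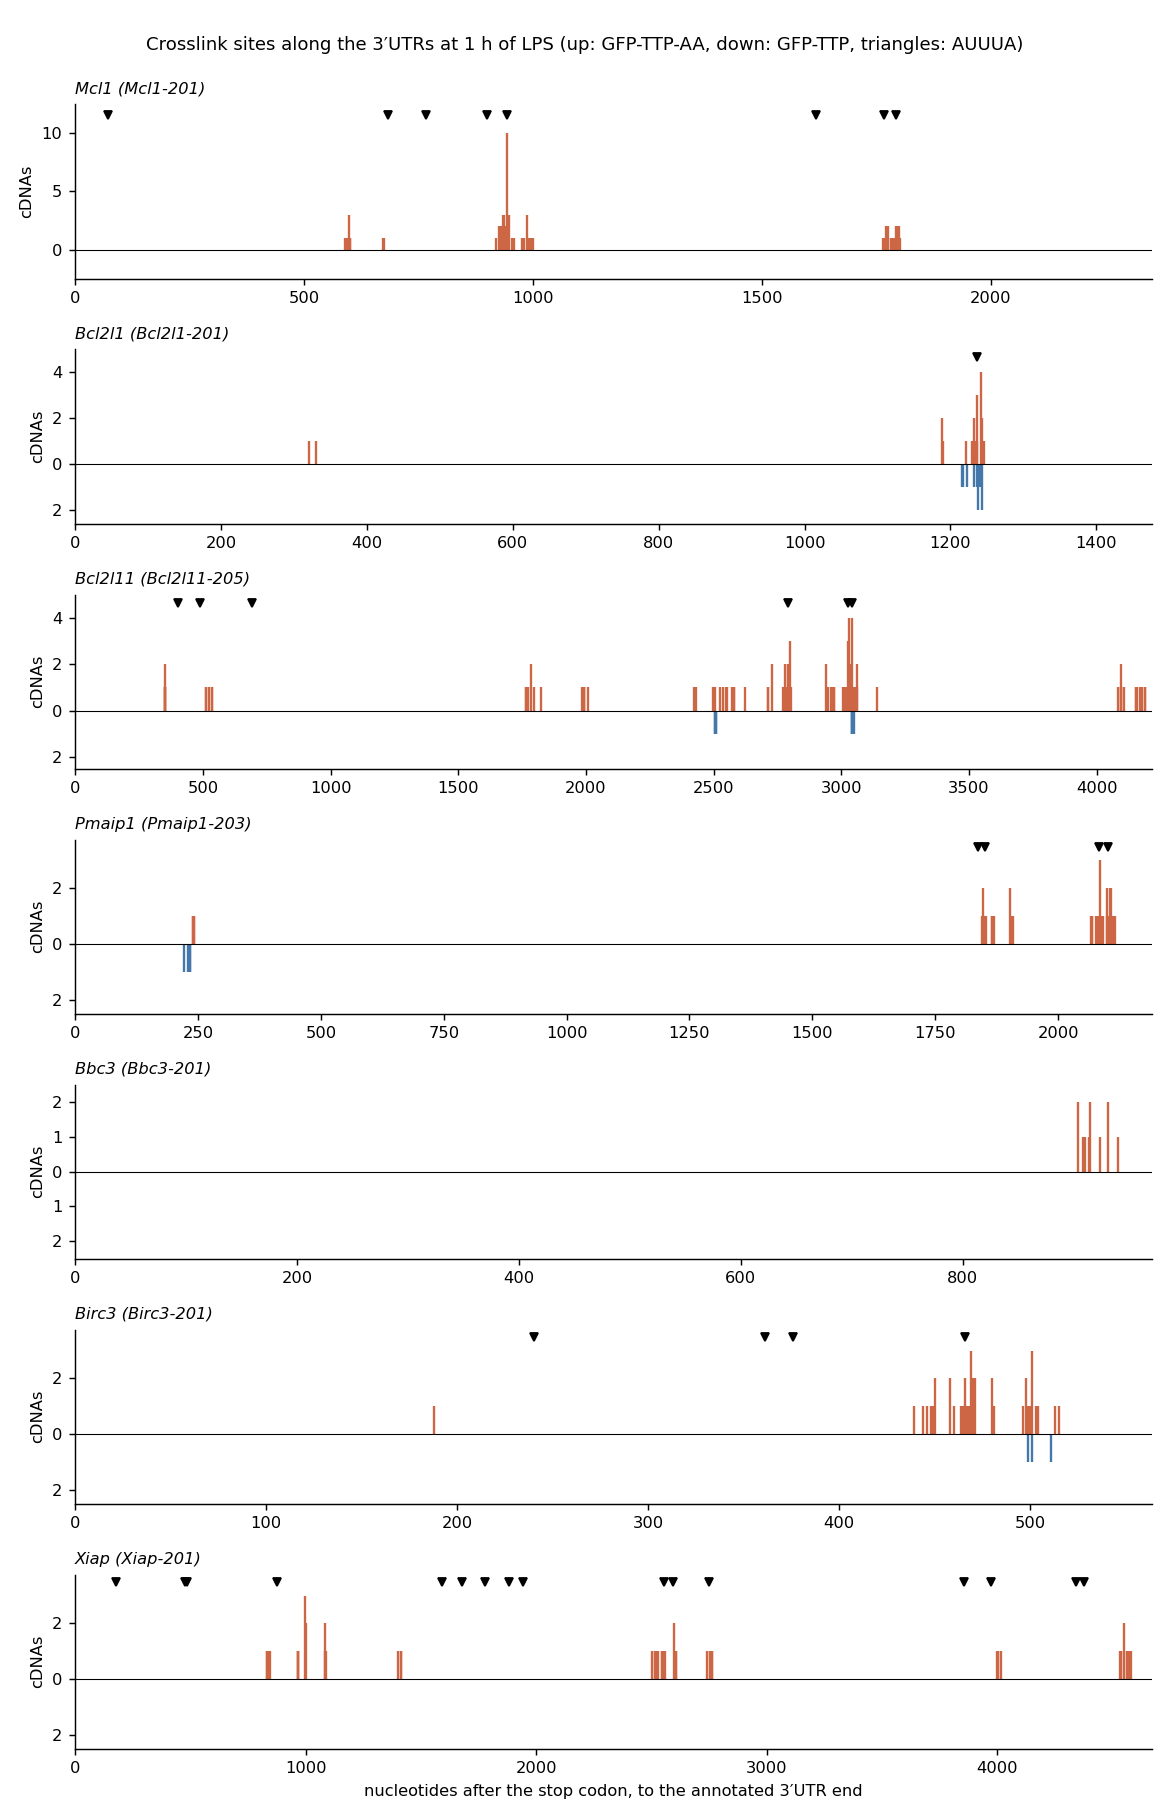
Lines give the cDNAs at each site (y axis) along the 3′UTR in nucleotides after the stop codon (x axis) at 1 h of LPS, with GFP-TTP-AA upwards, GFP-TTP downwards and black triangles at each AUUUA. In Mcl1, Bcl2l1, Bcl2l11 and Pmaip1 the cluster with most GFP-TTP-AA cDNAs lies beside AUUUA, and in Birc3 it does so in part. Xiap has 10 small clusters and Bbc3 has 1 without the motif. The Pmaip1 sites of GFP-TTP lie at nt 222 to 234, apart from most of those of GFP-TTP-AA.

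Per length, counts at 1 h with GFP-TTP-AA ranged from 7.75 cDNAs per kb of 3′UTR in Bcl2l1 to 37.8 in Mcl1, with 19.8 in Bcl2l11, 18.7 in both Pmaip1 and Birc3, and 11.3 in both Bbc3 and Xiap. With GFP-TTP the order was turned for Bcl2l1, which had 4.06 per kb, the highest, against 2.00 in Bcl2l11, 1.82 in Pmaip1 and 1.44 in Birc3. These densities use all annotated 3′UTR bases of a gene and rest on 3 to 12 cDNAs for GFP-TTP, so neighbouring genes in that order were not told apart. The bases counted were 2711 for Bcl2l1 and 2089 for Birc3, while their sites lay on 3′UTRs of 1477 and 564 nt. On those 3′UTRs alone both densities would be higher, so the order with GFP-TTP-AA depends on this choice.

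Of the 7 genes with the 10 cDNAs needed for the test at 1 h, 2 were called (6.39% of 2065 genes tested were called), Mcl1 higher with GFP-TTP-AA (1.99% of genes) and Bcl2l1 higher with GFP-TTP (4.41%). No median ratio is given, since 3 of the 7 genes (Mcl1, Bbc3 and Xiap) and 1140 of all genes tested had 0 GFP-TTP cDNAs. These passed the minimum through the GFP-TTP-AA list alone. Against all cDNAs of the list instead, 6 of the 7 were called higher with GFP-TTP-AA, with adjusted p from 1.57e-16 for Mcl1 to 0.0131 for Bbc3, but so were 84.9% of all genes, and Bcl2l1 was the exception. The split of calls over all genes moved with this choice from 41 higher with GFP-TTP-AA and 91 higher with GFP-TTP to 1754 and 9.

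**Figure D3:**
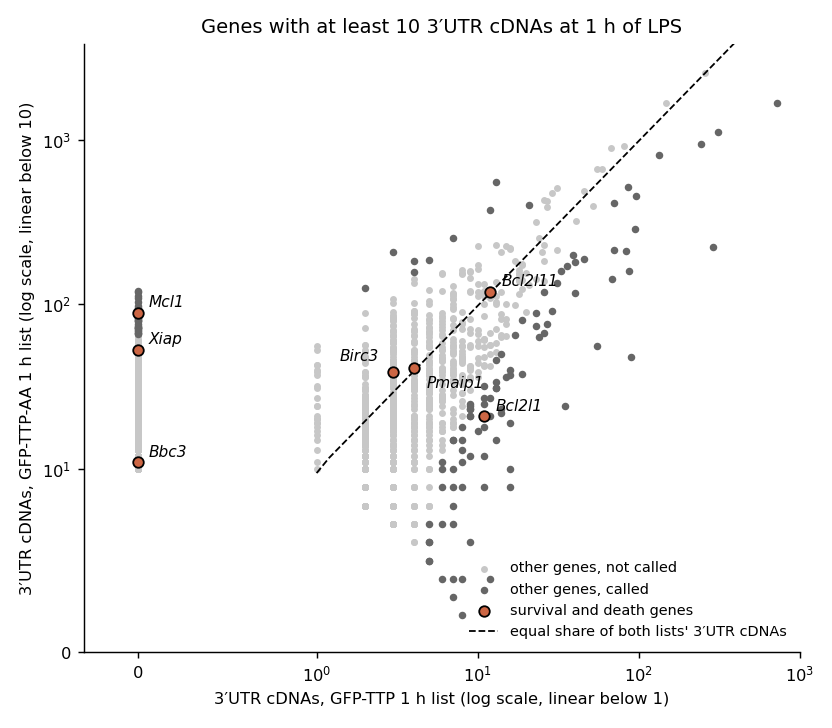
Each point is a gene with at least 10 3′UTR cDNAs over both 1 h lists, placed by its GFP-TTP count (x axis) and GFP-TTP-AA count (y axis), on log scales that are linear near 0, and the dashed line marks an equal share of both lists (ratio 9.78). Bcl2l11, Pmaip1 and Birc3 lie near the line, Bcl2l1 lies below it with 11 and 21 cDNAs, and Mcl1, Xiap and Bbc3 lie at 0 for GFP-TTP.

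Along LPS time, counts at 1 h were the highest of the 3 times in every gene with 3′UTR cDNAs of the protein, but so were the lists' 3′UTR totals. For GFP-TTP from 0 to 1 h, Bcl2l1 went from 0 to 11 cDNAs and was called (adjusted p 0.0486, Fisher exact test), and Bcl2l11 went from 1 to 12 and was not (adjusted p 0.126). These were the only 2 genes tested, where 47.5% of 276 genes were called, 23.9% of the 276 with the higher share at 1 h as for Bcl2l1. Bcl2l1 reached the minimum of 10 cDNAs through the 1 h list alone. At its 1 h share it would have had 5.03 cDNAs at 0 h, where no site was listed. For GFP-TTP-AA from 0 to 1 h, none of the 7 genes tested was called by the Fisher exact test, where 12.4% of 2052 genes were, and 2 had an unadjusted p under 0.05. Mcl1 had the lowest adjusted p (0.0519, Fisher exact test), with 0 cDNAs at 0 h and 89 at 1 h. Its 1 h share would have been 5.72 cDNAs at 0 h, where no site was listed. Mcl1, Pmaip1, Birc3 and Xiap had 0 cDNAs at 0 h and reached the minimum through the 1 h list alone. Bbc3 went the other way by share, from 0.0666% to 0.0118% of 3′UTR cDNAs (adjusted p 0.0734, Fisher exact test), while its count went from 4 to 11.

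From 1 to 4 h no gene of the group was called with either protein, at 7 genes tested with GFP-TTP-AA (3.13% of 1980 genes called) and 2 with GFP-TTP (of 170 genes, 14.1% called higher at 4 h and 5.88% higher at 1 h). With unadjusted p, Bcl2l1 with GFP-TTP-AA was the only gene of the group under 0.05 (p 0.00203, adjusted p 0.0581, Fisher exact test), with 21 cDNAs at 1 h and 3 at 4 h but a share of 0.0225% and 0.300%. The 4 h lists were too small for the other genes. At its 1 h share Mcl1 would have had 0.952 cDNAs in the 1000 3′UTR cDNAs of GFP-TTP-AA at 4 h, so the change after 1 h was not detectable at this depth. At 0 h and at 4 h no gene of the group reached 10 cDNAs over both proteins. The headers of the 1 h files carry a mark of the peak caller that those of the other times do not, so time and the way the peaks were called cannot be told apart.

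AUUUA on the transcript strand lay within 20 nt of 133 of the 283 GFP-TTP-AA sites in the genes' 3′UTRs at 1 h (47.0%, Wilson 95% interval 41.3 to 52.8) and of 12 of the 28 GFP-TTP sites (42.9%, 26.5 to 60.9). Of all positions of the same 3′UTRs, weighted by sites, 8.90% and 5.91% were that close. Over all genes the shares of sites were 34.6% and 37.7%. The longer element UAUUUAUU, which contains AUUUA, was within 20 nt of 14.8% and 14.3% of the genes' sites and of 9.47% and 15.5% of the sites of all genes, and those of the genes were in Bcl2l11, Pmaip1 and Birc3 for GFP-TTP-AA and in Bcl2l11 for GFP-TTP. A U was the crosslinked base at 70.7% of the GFP-TTP-AA sites and 64.3% of the GFP-TTP sites, where it was 61.6% and 63.7% over all genes, and 31.1% of the bases of these 3′UTRs were U. Sites of 1 gene share its sequence, so the intervals, which take sites as independent, are too narrow and no test was made.

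The genes differed in this respect. By GFP-TTP-AA sites at 1 h, 73.5% were beside AUUUA in Pmaip1, 72.2% in Mcl1 and 69.2% in Bcl2l1, where 5.20%, 12.1% and 2.51% of the 3′UTR's positions were. In Birc3 it was 46.4% of sites and 22.3% of positions, in Bcl2l11 33.3% and 4.74%, and in Xiap 29.8% and 12.0%. Bbc3 had none of either. With GFP-TTP it was 7 of 9 sites in Bcl2l1, 5 of 12 in Bcl2l11, 0 of 4 in Pmaip1 and 0 of 3 in Birc3.

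**Figure D4:**
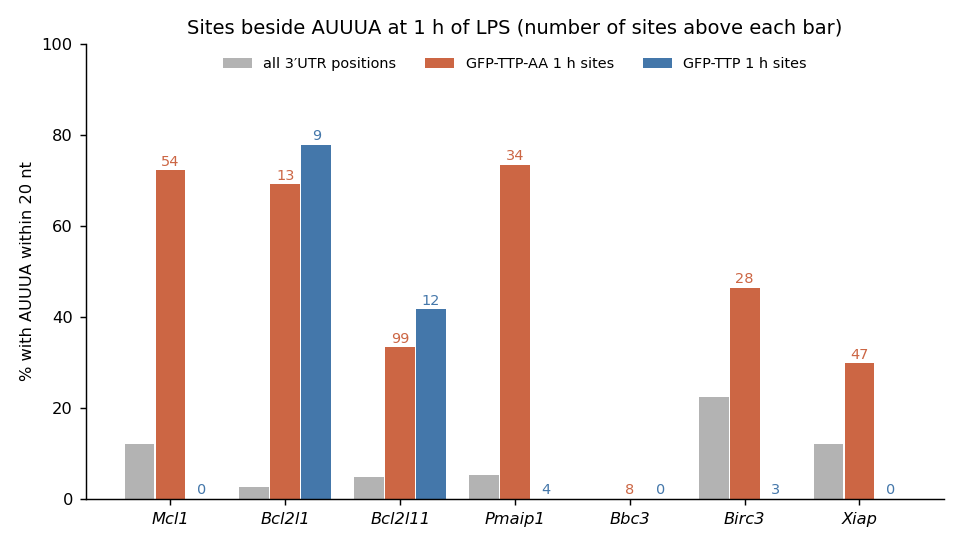
Bars give the percentage (y axis, from 0) of all 3′UTR positions (grey), of GFP-TTP-AA sites (orange) and of GFP-TTP sites (blue) at 1 h with AUUUA within 20 nt, and the numbers above the bars are the sites counted. The orange bar is above the grey one in each gene but Bbc3, which has no AUUUA, and the blue bar is at 0 for Pmaip1 with 4 sites and Birc3 with 3.

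At 1 h, 24 of the 28 GFP-TTP sites in these 3′UTRs had a GFP-TTP-AA site within 15 nt (85.7%, Wilson 95% interval 68.5 to 94.3), where the share over all genes was 76.6%. It was 9 of 9 in Bcl2l1, 9 of 12 in Bcl2l11, 3 of 4 in Pmaip1 and 3 of 3 in Birc3. On the same nucleotide it was 28.6%. The interval again takes sites as independent. Of 45 clusters in 3′UTRs, 42 held GFP-TTP-AA cDNAs at 1 h, 6 held GFP-TTP cDNAs and 5 held both. No antisense cDNA and no cDNA within 5000 nt on either side of any of the 10 genes was listed.

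Of 49 further genes of cell death, 18 had 3′UTR cDNAs of GFP-TTP-AA at 1 h and 7 had some of GFP-TTP, with 557 and 43 cDNAs in all. Over all 21028 coding genes with an annotated 3′UTR it was 4468 and 1295 genes. Of the 9 further genes that could be tested none was called at 1 h (Fisher exact test, unadjusted p from 0.133 for Cflar to 1.00 for Traf3), where 6.39% of 2065 genes were. Counts at 1 h with GFP-TTP-AA and GFP-TTP were 209 and 14 for Cflar, which encodes the caspase-8 inhibitor c-FLIP, 103 and 13 for the pore former Bax, and 73 and 6 for the TNF receptor gene Tnfrsf1b. Lower counts were found for Casp8 with 31 and 2, Traf3 with 26 and 2, Birc6 with 24 and 3, and Apaf1 with 24 and 0. The other anti-apoptotic BCL-2 genes Bcl2, Bcl2l2, Bcl2l10 and Bcl2a1a held 2 and 0 cDNAs in all, and the other BH3-only genes held 8 and 0. At 4 h Tnfrsf1b held 30 cDNAs of GFP-TTP and 15 of GFP-TTP-AA, where the 10 BCL-2 and IAP genes held 3 of each in all.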

How the data were processed

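Crosslink-site lists of 6 groups, summed by the authors over 15 libraries, were used as deposited. Per the paper's methods and the file headers, reads were collapsed by 4 random barcode bases, mapped to GRCm38 (mm10, Ensembl 75) with Bowtie, named without a version in the submitters' processing notes, and sites were kept at a false discovery rate below 0.05 from 100 permutations and a 15-nt neighbourhood. The deposited score is a whole number of cDNAs per nucleotide, its sign the strand. Sites were placed on GENCODE M21 transcripts (3′UTR, then coding sequence, 5′UTR, non-coding exon, intron). Each gene with at least 10 3′UTR cDNAs over 2 lists was tested against all other 3′UTR cDNAs (two-sided Fisher exact test, Benjamini-Hochberg over all genes tested, 0.05; Python 3.11.15, scipy 1.17.1), after a check on simulated data. Count ratios have exact (Clopper-Pearson) and shares Wilson 95% intervals. The genes named were the 10 members, the deleted gene, and of the 49 further genes the 6 with most GFP-TTP-AA cDNAs at 1 h, a tie giving 7. Members, gene lists and tests were chosen with earlier results of these data known. Alternatives changed the minimum count, the denominator, the site minimum, the region order and the distances.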

Additional observations from a re-analysis of the deposited data

How the results depend on the processing

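No paired analysis was possible because each group is 1 list summed over libraries, and for the same reason no replicate could be left out. The cause of the changes below was not tested. At 1 h, the odds ratio of Bcl2l1 was 1.09 against all cDNAs of the list (adjusted p 1.00, Fisher exact test), and with each site counted once that of Bcl2l11 was 0.913 (adjusted p 0.827) and that of Pmaip1 0.941 (adjusted p 0.854). Against all cDNAs the genes called were 1763 at 1 h (1644 outside the ribosomal RNA locus on chromosome 17), 503 for GFP-TTP-AA from 0 to 1 h and 276 from 1 to 4 h. The calls higher and lower at the later time moved from 56 and 199 to 466 and 37, and from 60 and 2 to 5 and 271. For GFP-TTP they moved from 66 and 65 to 32 and 93 at 1 h and from 24 and 10 to 4 and 47 at 4 h, and between proteins at 0 h from 42 and 32 to 59 and 19 and at 4 h from 9 and 8 to 10 and 4 (higher with GFP-TTP-AA first).

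With only sites of at least 2 cDNAs, calls were 31, 64 and 10 between proteins at 0, 1 and 4 h, 47 and 90 for GFP-TTP and GFP-TTP-AA from 0 to 1 h, and 14 and 19 from 1 to 4 h. With each site counted once they were 31 at 0 h and 7 at 4 h. With a minimum of 5 cDNAs they were 156 at 0 h and 51 at 4 h, and with 20 they were 32 and 10, and 53 for GFP-TTP from 0 to 1 h. Over exonic cDNAs only, the genes' 3′UTR share was 93.8% and 97.4% with GFP-TTP and GFP-TTP-AA at 1 h and 100% with GFP-TTP at 0 h and with either protein at 4 h. With only sites of at least 2 cDNAs it was 98.1% at 1 h and 100% at 4 h with GFP-TTP-AA. The share of GFP-TTP-AA sites near AUUUA at 1 h was 32.2% within 10 nt, 61.8% within 50 nt, 53.6% weighted by cDNAs and 70.3% at sites of at least 2 cDNAs, and with GFP-TTP it was 100% at 2 such sites and 100% within 50 nt at 4 h. Of GFP-TTP sites at 1 h, 28.6% shared the nucleotide with GFP-TTP-AA, and 100% of 2 sites of at least 2 cDNAs had a GFP-TTP-AA site within 15 nt.

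Depth limits these results: the 7 genes tested at 1 h had 0 to 12 GFP-TTP cDNAs each (0 for Mcl1 and 11 for Bcl2l1, the genes called), and the 4 h lists held 906 and 1000 3′UTR cDNAs.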
